A study of Mus musculus with 8 samples.

Results

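The SLAM family is a group of immunoglobulin-like surface receptors of blood cells, examined here as 9 mouse genes: the receptors Slamf6, Cd84, Slamf7, Ly9, Slamf1, Slamf8 and Slamf9, the ligand Cd48 and the adaptor Sh2d1a. Every probe set whose only gene symbol in the platform annotation is one of these genes was taken, which gave 12 of 22626 probe sets, for 9 of 12393 genes. Slamf6 had 2 probe sets, Slamf1 had 3 and the other 7 genes had 1 each. The family was taken up with earlier results of the same comparison known, in which Slamf6 stood among the largest differences. The differences between CD44hi and CD44lo are therefore given for these genes as a description, and the counts past the threshold of the fit over all probe sets are no evidence about them.

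The study used established mouse lymphoma cell lines of T cell origin that are deficient in Snf5, the product of Smarcb1 and part of the core of SWI/SNF chromatin remodelling complexes. CD44hi and CD44lo subpopulations were purified on the hyaluronan receptor CD44, and 4 samples of each were hybridised to 8 Affymetrix Mouse 430A 2.0 arrays. Both groups are Snf5-deficient, and no sample with Snf5 is among the 8. The labels give the same cell line entry for every sample and do not say how many lines were used or whether the 4 replicates of a group were separate cultures, so the spread between arrays may be technical. In bulk RNA, fewer cells that make a transcript and less of it per cell cannot be told apart.

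Most SLAM receptors bind their own kind on a neighbouring cell. Their cytoplasmic tails carry tyrosine switch motifs that recruit the small SH2 adaptor SAP, the product of Sh2d1a, which brings in the kinase Fyn. Where SAP is missing, phosphatases such as SHP-1 can occupy the same motifs. Cd48 differs from the others in being held by a lipid anchor with no tail, and it is the ligand of the receptors encoded by Cd2 and Cd244a. In T cells the family is known for its part in the development of natural killer T (NKT) cells and in the contact of T follicular helper cells with B cells.

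Levels are log2 of the deposited array intensities. As a measure of background, the 27 probe sets for Bacillus transcripts on each array had a median between 3.95 and 4.11 on CD44hi arrays and between 3.95 and 4.12 on CD44lo arrays. The highest of these probe sets lay between 5.61 and 5.82 on CD44hi arrays and between 5.53 and 5.86 on CD44lo arrays. The sorted marker followed the labels, with Cd44 at 11.44 ± 0.28 on CD44hi arrays and 5.55 ± 0.45 on CD44lo arrays (SD, n = 4 each). Of 10 measured T cell markers, Cd3d, Cd3e, Cd3g, Cd247, Cd8a, Cd8b1 and Lat lay at 12.76 or higher on every array. Thy1 (4.47 in CD44hi, 4.55 in CD44lo), Cd5 (4.32 in CD44hi, 4.29 in CD44lo) and Cd4 (5.23 in CD44hi, 5.17 in CD44lo) lay below the highest Bacillus probe set on every array, though Cd4 was above their 90th percentile (4.63 to 4.74 on CD44hi arrays, 4.64 to 4.69 on CD44lo arrays).

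In CD44hi cells, Slamf6, Cd84 and Slamf7 were lower than in CD44lo cells, by 9.79-fold, 3.26-fold and 2.43-fold. Ly9 and Cd48 were well above the Bacillus probe sets in both groups and differed by under 10%. Slamf1, Slamf8, Slamf9 and the adaptor gene Sh2d1a lay below the highest Bacillus probe set on all 8 arrays. By limma with Benjamini-Hochberg adjustment over all probe sets, 4 of the 12 member probe sets passed as lower and 0 as higher, where 1.48% of all probe sets passed as lower and 1.64% as higher. With the replicate number as a block 4 passed as lower and 0 as higher again, where 2.63% of all probe sets passed as lower and 2.52% as higher. Nothing is read from these counts, because the family was chosen on this comparison. The median difference over the 12 probe sets was -0.17 on the log2 scale, against -0.0011 over all probe sets.

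**Figure D1:**
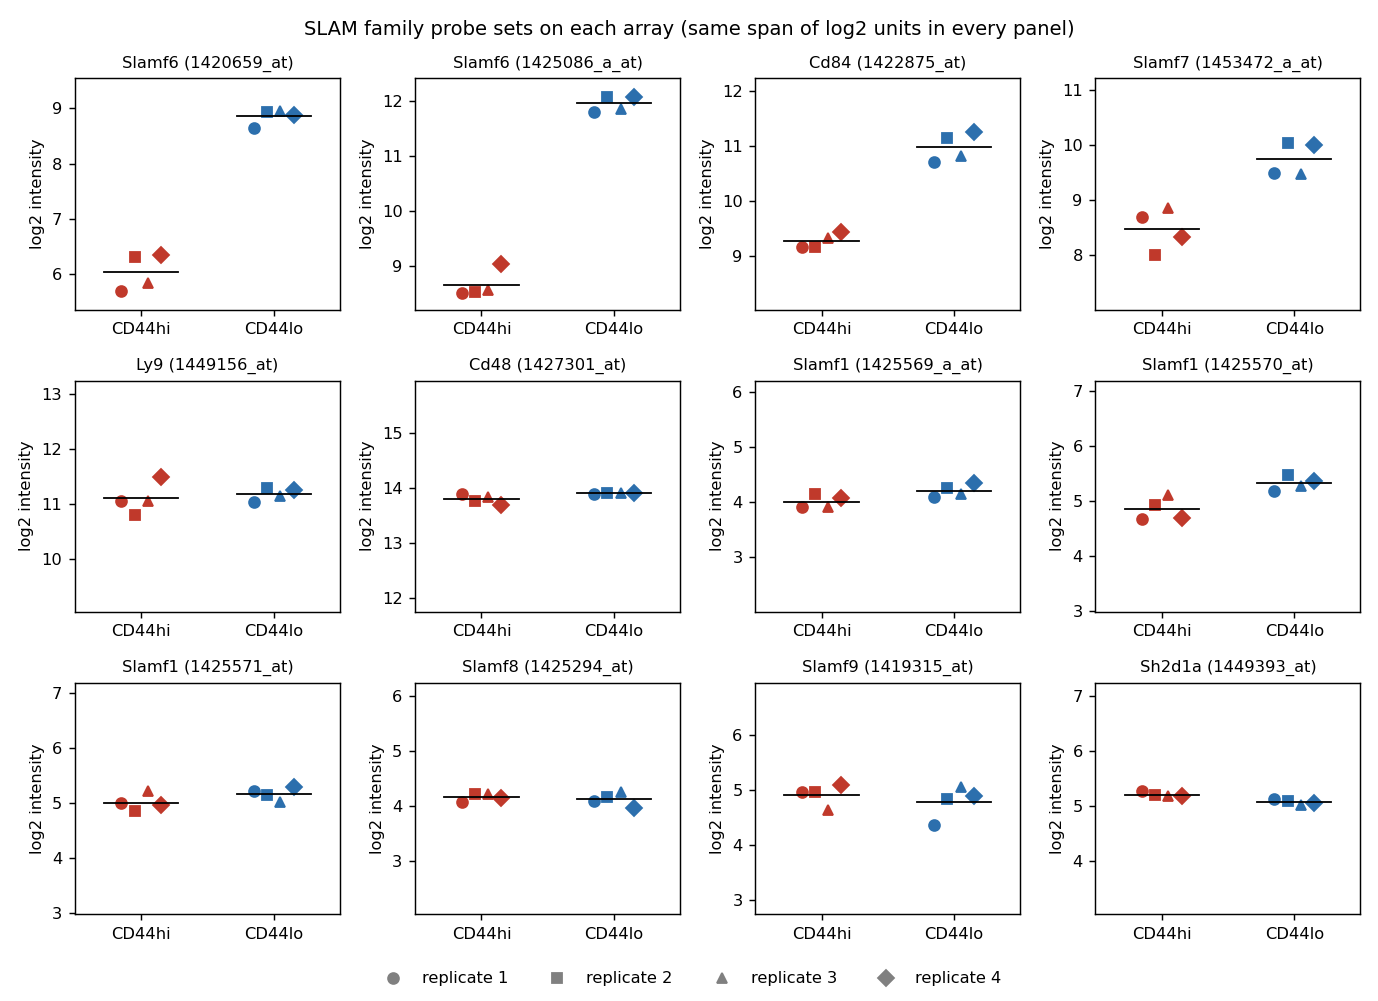
Log2 intensity (y axis) of each of the 12 SLAM family probe sets on each array, with CD44hi on the left and CD44lo on the right of every panel; marker shapes give the replicate number, lines the means of 4 arrays, and every panel spans the same number of log2 units. Both Slamf6 probe sets, Cd84 and Slamf7 have all 4 CD44hi arrays below all 4 CD44lo arrays by a wide gap, while the other panels show groups that overlap or lie close together.

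Promoter sequences are shown for the 3 genes that were lower in CD44hi and for Cd48, which lies among them on chromosome 1 and was nearly level. They come from RefSeq (build GRCm38.p6) and run from 250 bases before to 50 bases after the gene start that the table uses, 5′ to 3′ on the strand of the gene. For Slamf7 and Cd48 this start lies well inside the RefSeq gene span, which ends at 171653037 for Slamf7 and begins at 171681245 for Cd48. The same holds for Slamf8 and Slamf9, which are counted below. Other starts of these genes were not searched. Capitals mark matches, on either strand, to any of 5 motifs of T cell transcription factors, namely AGATAA of the Gata family, TGTGGT of the Runx family, CCGGAA of the Ets family, CTTTGA of the Tcf and Lef family, and the E box CANNTG. Matches of different motifs may overlap.
Slamf6, chr1:171917212-171917511, plus strand: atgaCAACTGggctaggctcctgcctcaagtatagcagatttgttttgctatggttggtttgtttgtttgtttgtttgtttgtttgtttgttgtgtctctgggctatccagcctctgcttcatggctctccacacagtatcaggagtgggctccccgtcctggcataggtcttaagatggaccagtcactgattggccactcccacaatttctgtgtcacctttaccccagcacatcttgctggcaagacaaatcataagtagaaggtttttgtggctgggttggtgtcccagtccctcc
Cd84, chr1:171839447-171839746, plus strand: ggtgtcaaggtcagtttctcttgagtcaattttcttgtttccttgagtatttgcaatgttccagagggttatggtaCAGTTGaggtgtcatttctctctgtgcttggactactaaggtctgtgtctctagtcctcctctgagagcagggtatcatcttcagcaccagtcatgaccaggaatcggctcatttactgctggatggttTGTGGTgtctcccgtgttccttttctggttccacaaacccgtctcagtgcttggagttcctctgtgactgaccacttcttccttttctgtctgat
Slamf7, chr1:171648950-171649249, minus strand: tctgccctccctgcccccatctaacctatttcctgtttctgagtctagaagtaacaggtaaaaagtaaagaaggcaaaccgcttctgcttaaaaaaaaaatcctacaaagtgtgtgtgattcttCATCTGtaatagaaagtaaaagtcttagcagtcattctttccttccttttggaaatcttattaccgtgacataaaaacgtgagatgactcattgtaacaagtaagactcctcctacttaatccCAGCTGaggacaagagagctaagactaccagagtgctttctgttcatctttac
Cd48, chr1:171681742-171682041, plus strand: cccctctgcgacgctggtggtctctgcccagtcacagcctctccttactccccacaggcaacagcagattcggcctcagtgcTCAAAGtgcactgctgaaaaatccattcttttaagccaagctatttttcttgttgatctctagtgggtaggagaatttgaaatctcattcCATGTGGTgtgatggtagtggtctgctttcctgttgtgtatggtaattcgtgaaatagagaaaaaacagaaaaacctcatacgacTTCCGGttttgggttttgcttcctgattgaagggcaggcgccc

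A promoter was found in the table for 7 of the 9 genes. AGATAA was in 0 of these 7 windows and in 11.2% of 32851 promoters of the same length. TGTGGT was in 2 of 7, those of Cd84 and Cd48, and in 16.8% of all promoters. In Cd84 it began at -45, counted from the start as 0. CCGGAA was in 1 of 7 (Cd48) and in 14.9% of all. CTTTGA was in 2 of 7 (Cd48 and Slamf9) and in 16.0% of all. CANNTG was in 7 of 7 and in 72.3% of all, so the E box is common to the family and to most promoters. The 3 genes that were lower in CD44hi thus share no searched motif other than the E box in these windows. A match is a run of letters and says nothing about binding.

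Slamf6 (Ly108) is a self-binding receptor of T, B and natural killer cells. With the probe set 1425086_a_at its log2 intensity was 8.52, 8.54, 8.57 and 9.04 on CD44hi arrays 1 to 4, against 11.80, 12.08, 11.87 and 12.08 on CD44lo arrays 1 to 4. CD44hi array 4 was the highest of its group, and the gap between the groups was still over 2 log2 units. The CD44hi mean was 8.67 ± 0.25 and the CD44lo mean 11.96 ± 0.15 (SD, n = 4 each), a difference of -3.29 (SE 0.13). It was the fifth largest fall among the 22626 probe sets. The other probe set, 1420659_at, read 5.69, 6.30, 5.82 and 6.33 on CD44hi arrays, against 8.65, 8.93, 8.96 and 8.89 on CD44lo arrays. Its difference was -2.82 (SE 0.16), so both probe sets put Slamf6 lower in CD44hi on every array. On CD44hi array 1 this probe set was no higher than the highest Bacillus probe set, and robust multichip averaging shrinks differences near background, so its 7.06-fold difference may be understated.

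Cd84 (SLAMF5), a self-binding receptor that holds T follicular helper cells to B cells, lies next to Slamf6 on chromosome 1. It read 9.16, 9.16, 9.32 and 9.44 on CD44hi arrays 1 to 4, against 10.71, 11.14, 10.81 and 11.24 on CD44lo arrays. The groups did not overlap, and CD44lo arrays 2 and 4 were higher than CD44lo arrays 1 and 3. The mean was 9.27 ± 0.14 in CD44hi and 10.97 ± 0.26 in CD44lo, a difference of -1.71 (SE 0.13).

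Slamf7 (CRACC), a self-binding receptor of natural killer cells, activated lymphocytes and plasma cells, read 8.70, 7.996, 8.86 and 8.32 on CD44hi arrays 1 to 4, against 9.49, 10.04, 9.46 and 9.99 on CD44lo arrays. The groups were apart, but the replicate numbers went opposite ways: arrays 2 and 4 were the lower ones in CD44hi and the higher ones in CD44lo. The mean was 8.47 ± 0.39 in CD44hi and 9.75 ± 0.31 in CD44lo, a difference of -1.28 (SE 0.21). Between arrays numbered 1 and 3 the difference averaged -0.70, and between those numbered 2 and 4 it averaged -1.86.

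**Figure D2:**
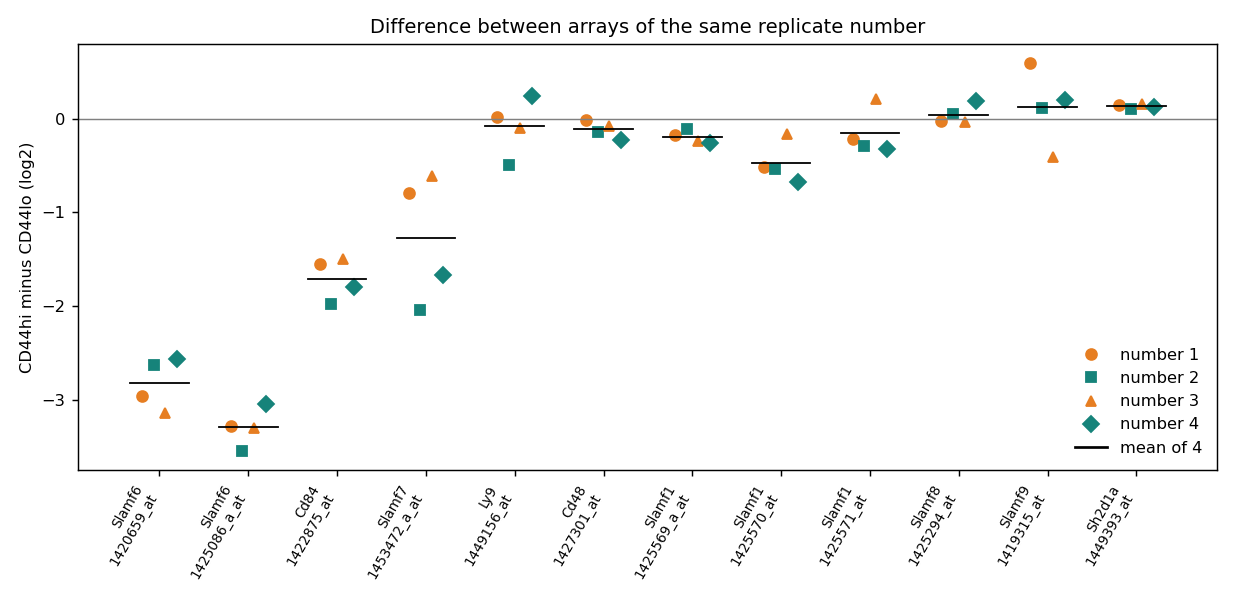
CD44hi minus CD44lo difference (log2, y axis) between arrays of the same replicate number, for each SLAM family probe set; orange points are numbers 1 and 3, green points numbers 2 and 4, and black lines the mean of 4. Slamf7 splits into -0.79 and -0.61 for numbers 1 and 3 and -2.04 and -1.67 for numbers 2 and 4, whereas Slamf6 1425086_a_at stays between -3.54 and -3.05.

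For Cd84 the differences by number were -1.55, -1.98, -1.50 and -1.80 for numbers 1 to 4. They were larger for the even numbers, as with Slamf7, but by much less. For Slamf6 1425086_a_at they were -3.28, -3.54, -3.30 and -3.05, and for 1420659_at -2.96, -2.63, -3.14 and -2.56. The 2 Slamf6 probe sets did not share an order over the numbers. The labels do not say what a replicate number stands for.

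Ly9 (CD229), a self-binding receptor of T and B cells, was at 11.06, 10.80, 11.05 and 11.49 on CD44hi arrays 1 to 4, against 11.04, 11.29, 11.14 and 11.25 on CD44lo arrays. The CD44hi arrays spread to both sides of the CD44lo arrays. The difference was -0.08 (SE 0.14). Cd48 read 13.89, 13.77, 13.84 and 13.70 on CD44hi arrays, against 13.90, 13.91, 13.92 and 13.92 on CD44lo arrays. All 4 CD44hi values were below the CD44lo values, by a mean of only -0.11 (SE 0.07). Among all probe sets, 4.61% had every CD44hi value below every CD44lo value and 4.73% every CD44hi value above. The Cd48 arrays lay close together, with an SD of 0.08 in CD44hi and 0.0068 in CD44lo.

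Slamf1 (CD150), the founding member and a self-binding receptor of activated T cells, was read by 3 probe sets. The probe set 1425570_at read 4.68, 4.94, 5.11 and 4.69 on CD44hi arrays, against 5.19, 5.47, 5.27 and 5.37 on CD44lo arrays. The groups did not overlap, and the difference was -0.47 (SE 0.12). For 1425569_a_at the difference was -0.20 (3.90 to 4.14 in CD44hi, 4.08 to 4.33 in CD44lo), and for 1425571_at -0.15 (4.86 to 5.22 in CD44hi, 5.01 to 5.28 in CD44lo), with overlapping groups in both. All 3 differences were below 0, at levels where the size of a change is uncertain.

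Slamf8 and Slamf9 are short-tailed members known mainly from macrophages and dendritic cells. Slamf8 lay between 4.07 and 4.22 in CD44hi and between 3.96 and 4.25 in CD44lo, among the middle Bacillus probe sets. Slamf9 lay between 4.65 and 5.10 in CD44hi and between 4.37 and 5.05 in CD44lo. The groups overlapped for both, with differences of 0.04 (SE 0.09) and 0.12 (SE 0.16). Of 12 measured macrophage and dendritic cell markers 0 passed in either direction (limma; 0 had an unadjusted p under 0.05, and with the replicate block 0 passed and 1 had one). Their summed linear intensity was 769 to 1656 in CD44hi and 703 to 1278 in CD44lo. The smallest p values belonged to Lyz2 (5.30 in CD44hi, 5.04 in CD44lo), Adgre1 (4.23 in CD44hi, 4.45 in CD44lo) and H2-Aa (5.66 in CD44hi, 5.44 in CD44lo). Named after their values were seen, Itgam, Itgax, Cd14, Fcgr1, Adgre1 and Mpeg1 stayed below 5 on every array, whereas Cd68 (8.01 to 10.29 in CD44hi, 8.20 to 9.76 in CD44lo) and Cd74 (6.47 to 7.74 in CD44hi, 6.46 to 6.87 in CD44lo) were well above the Bacillus probe sets. By number, 1 to 4, Cd68 differed by -0.19, 0.49, -0.03 and 0.53, and Cd74 by 0.94, 0.02, 0.87 and -0.16. Csf1r (5.36 to 5.73 in CD44hi, 5.25 to 5.66 in CD44lo) and Msr1 (5.46 to 6.03 in CD44hi, 5.60 to 5.70 in CD44lo) lay near the highest Bacillus probe set.

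Sh2d1a, the adaptor gene, read 5.27, 5.20, 5.18 and 5.19 on CD44hi arrays, against 5.12, 5.09, 5.02 and 5.06 on CD44lo arrays. The CD44hi values were all above the CD44lo values, but the difference was only 0.14 (SE 0.07). Both groups lay below the highest Bacillus probe set, and above the 90th percentile of these probe sets on all 8 arrays, so whether SAP transcripts were present cannot be said from this probe set.

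The family sits largely in one cluster. In the RefSeq gene table (GRCm38.p6) Ly9, Slamf7, Cd48, Slamf1, Cd84 and Slamf6 follow each other in this order at chr1:171588613-171948958, with no other measured gene between them. Slamf9 and Slamf8 lie further along chromosome 1, and Sh2d1a is on chromosome X. The genes that were lower in CD44hi do not form a block: Slamf7 is separated from Cd84 and Slamf6 by Cd48, which was nearly level. Slamf1 also lies between them, but near background, where the size of a change is uncertain. Cd84 and Slamf6, with the larger differences, are at one end of the run.

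The 10 nearest measured genes on each side of this run were taken as neighbours, and 0 of 20 passed in either direction (limma; 2 had an unadjusted p under 0.05). With the replicate block 0 passed as well, and 3 had an unadjusted p under 0.05. Over all genes 1.63% passed as lower and 1.88% as higher, and with the block 2.82% passed as lower and 2.84% as higher. The neighbours' differences ran from -0.57 for Cd244a to 0.36 for Itln1, with a median of -0.01. Vangl2, the gene that follows Slamf6, had 7.25 ± 0.51 in CD44hi and 7.60 ± 0.15 in CD44lo (difference -0.34, SE 0.23, limma adjusted p = 0.682). Cd244a, which codes for a receptor of Cd48 and precedes Ly9, had 4.42 ± 0.22 in CD44hi and 4.99 ± 0.41 in CD44lo (difference -0.57, SE 0.20, limma adjusted p = 0.252), at or near background. Nhlh1 (4.09 in CD44hi, 4.04 in CD44lo), Casq1 (4.24 in CD44hi, 4.30 in CD44lo) and Itln1 (5.81 in CD44hi, 5.45 in CD44lo) were also at or near background, where a difference may not be seen.

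**Figure D3:**
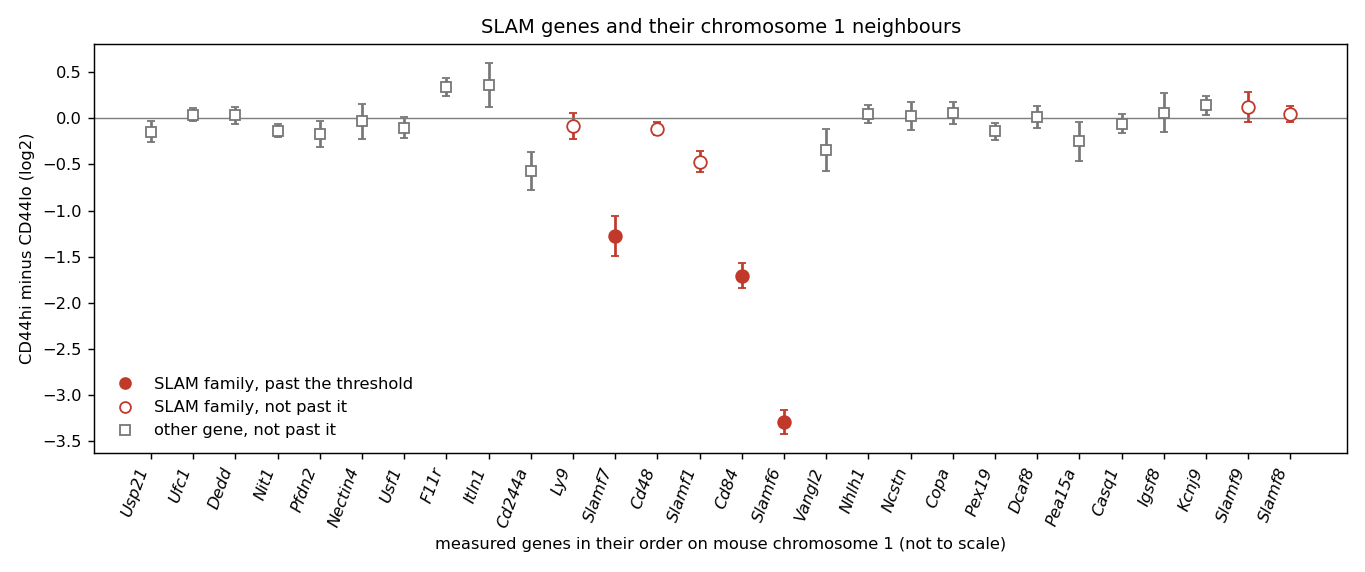
CD44hi minus CD44lo difference (log2, y axis; bars give the SE) for the SLAM genes and 20 neighbouring genes in their order on mouse chromosome 1 (x axis, not to scale), each by its brightest probe set. Slamf7, Cd84 and Slamf6 lie at -1.28, -1.71 and -3.29, and the neighbours on both sides lie between -0.57 and 0.36.

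Of 23 signalling partners of the SLAM receptors 19 were measured, and by limma 2 passed as lower in CD44hi and 0 as higher, where 1.63% of all genes passed as lower and 1.88% as higher. With the replicate block 3 passed as lower and 0 as higher, where 2.82% and 2.84% of all genes did. The median difference of the list was -0.04, against -5.9e-05 over all genes. As the list was chosen with earlier results of these data known, nothing is read from its counts. Vav1, an exchange factor that acts after SAP and Fyn, read 10.06, 10.28, 10.21 and 10.85 on CD44hi arrays, against 11.11, 11.20, 11.12 and 11.35 on CD44lo arrays (difference -0.85, SE 0.16, limma adjusted p = 0.0233). CD44hi array 4 lay nearest the CD44lo arrays. Vav1 also passed with the replicate block (limma adjusted p = 0.00723). The call was lost in 7 of 8 fits that left out 1 array, each with fewer arrays (limma adjusted p up to 0.0837). It was kept only without CD44hi array 4, and the difference stayed between -1.01 and -0.75. Ptpn6, which codes for the phosphatase SHP-1, read 10.25, 10.07, 10.30 and 10.48 on CD44hi arrays, against 11.00, 10.84, 10.95 and 10.82 on CD44lo arrays (difference -0.63, SE 0.10, limma adjusted p = 0.00965). Its call was kept in all 8 such fits. A dimmer Ptpn6 probe set differed by -0.36 and did not pass (limma adjusted p = 0.161).

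Nck1, an SH2 adaptor, had a difference of -0.38 (limma adjusted p = 0.112) and passed as lower with the replicate block (limma adjusted p = 0.0360). Its dimmer probe set passed without the block at -0.74 (limma adjusted p = 0.00247). Fyn, the kinase that SAP recruits, was at 13.02 ± 0.19 in CD44hi and 13.14 ± 0.21 in CD44lo (difference -0.12, SE 0.13, limma adjusted p = 0.856). Ptpn11, which codes for the phosphatase SHP-2, had a difference of -0.12 (SE 0.07, limma adjusted p = 0.602). Fyn and Ptpn11 are named as the best known partners, after their values were seen. Of 5 measured CD2 family and partner genes 0 passed (limma; 2 had an unadjusted p under 0.05, without and with the replicate block, and 0 passed with the block). Pstpip1, which binds the CD2 tail, had a difference of -0.40 (limma adjusted p = 0.120), Cd2bp2 of 0.14 (limma adjusted p = 0.550).

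Among 13 measured NKT cell genes 2 were lower in CD44hi and 0 higher, where 1.63% of all genes passed as lower and 1.88% as higher. Their median difference was -0.18, against -5.9e-05 over all genes. Nothing is read from these counts either, because the list was chosen with earlier results of these data known. Gata3, a T cell transcription factor, read 6.13, 6.26, 6.26 and 6.19 on CD44hi arrays, against 9.76, 9.71, 9.43 and 10.21 on CD44lo arrays (difference -3.57, SE 0.15, limma adjusted p = 4.44e-06). The CD44hi arrays lay within 0.13 of each other, far below every CD44lo array. Cd1d1, which codes for the lipid-presenting molecule that selects NKT cells, was at 10.29 ± 0.12 in CD44hi and 10.87 ± 0.12 in CD44lo (difference -0.58, SE 0.09, limma adjusted p = 0.00922). Its probe set can also read a related transcript, and the other Cd1d1 probe set differed by -0.44 (limma adjusted p = 0.0407). Ifng, interferon gamma, had a difference of 0.59 (limma adjusted p = 0.124) and passed as higher with the replicate block (limma adjusted p = 0.0231).

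Zbtb16, the defining transcription factor of NKT cells (PLZF), was at 5.99 ± 0.11 in CD44hi and 5.96 ± 0.09 in CD44lo, and is named after its values were seen. Of 12 measured T follicular helper genes 0 passed and 1 had an unadjusted p under 0.05 by limma, where 1.63% of all genes passed as lower and 1.88% as higher. With the replicate block Il6st, an interleukin-6 receptor subunit, passed as higher (difference 0.45, limma adjusted p = 0.0194), where 2.84% of all genes did. Its dimmer probe sets 1421239_at and 1460295_s_at did not pass with the block (limma adjusted p = 0.084 and 0.109). Without the block the lowest p values of the list belonged to Il6ra (difference 0.48, limma adjusted p = 0.242), Pdcd1 (difference -0.82, limma adjusted p = 0.454) and Ascl2 (difference -0.19, limma adjusted p = 0.580). For Pdcd1 the differences by number were 0.35, -1.99, 0.21 and -1.87 for numbers 1 to 4, so its mean joins opposite signs.

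**Figure D4:**
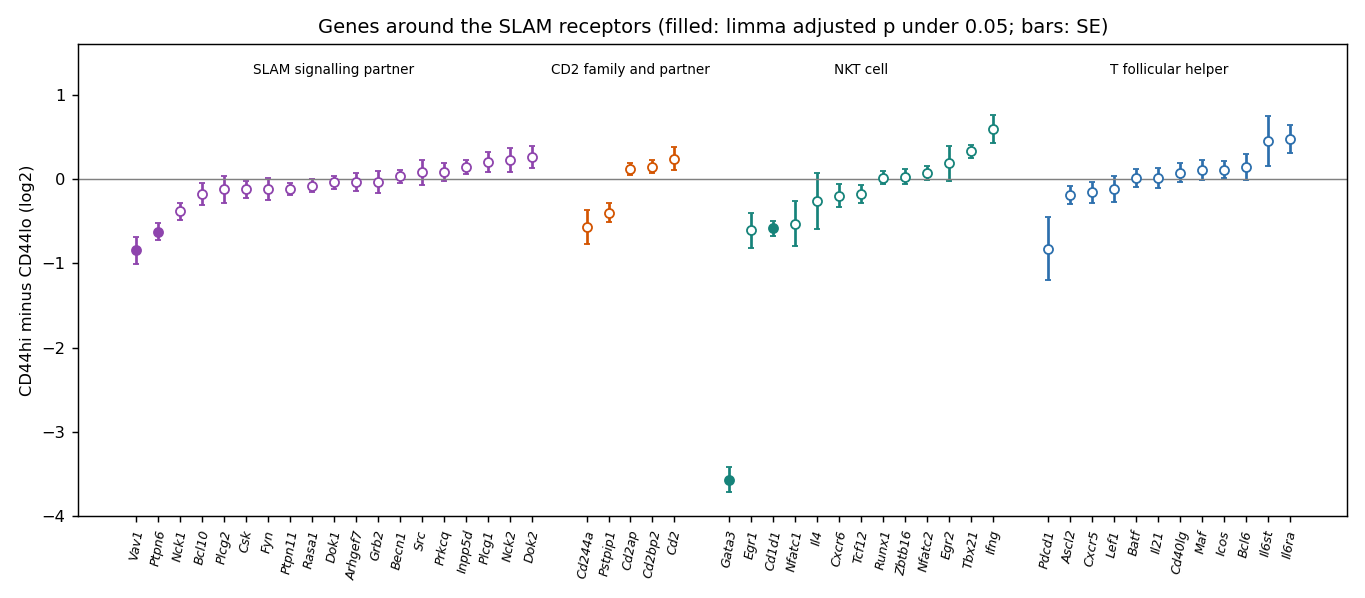
CD44hi minus CD44lo difference (log2, y axis; bars give the SE) for measured genes of 4 lists around the SLAM receptors, ordered by difference within each list; filled points passed limma at an adjusted p under 0.05. The filled points are Vav1, Ptpn6, Gata3 and Cd1d1, all below 0, and Gata3 stands far from the rest at -3.57.

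Genes most like Slamf6 and Cd84 over the 8 arrays were found by the root mean square distance between log2 values, each gene centred on its own mean. This is a description of 8 arrays that share the group difference, so correlations are high by construction. Nearest to Slamf6 (1425086_a_at) were Gata3 at a distance of 0.27 (Pearson's r = 0.99), Nrep at 0.32, Sln at 0.33, and the kallikrein genes Klk4 at 0.35 and Egfbp2 at 0.40, whose close paralogs can share probes. Nearest to Cd84 were Pitpnc1, a phosphatidylinositol transfer protein gene, at 0.088 (Pearson's r = 1.00), Hexa, a lysosomal hexosaminidase gene, at 0.14, the potassium channel gene Kcnk5 at 0.15, Cgref1 at 0.15 and Pkp2, a desmosomal plakophilin gene, at 0.16. For Pitpnc1 the differences by number were -1.68, -2.08, -1.52 and -1.92, in the same order over the numbers as those of Cd84 and of Hexa. Both genes were picked by closeness to Cd84 over these same arrays, so nothing is read from the shared order.

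Markers of other cells that carry SLAM receptors were examined beside these differences. Of 6 measured NK cell markers 0 passed and 0 had an unadjusted p under 0.05 by limma, without and with the replicate block, and their summed linear intensity was 108 to 122 in CD44hi and 104 to 114 in CD44lo. These NK cell markers all lay below the highest Bacillus probe set on every array. Of 6 measured plasma cell markers 0 passed and 0 had an unadjusted p under 0.05 by limma, without and with the replicate block. Their sum was 17203 to 18863 in CD44hi and 16820 to 19204 in CD44lo, most of it from Irf4 (13.77 in CD44hi, 13.76 in CD44lo). Jchain (4.66 in CD44hi, 4.61 in CD44lo) and Tnfrsf17 (5.13 in CD44hi, 5.32 in CD44lo) lay below the highest Bacillus probe set on every array. Sdc1 (7.25 in CD44hi, 7.54 in CD44lo), Xbp1 (10.54 in CD44hi, 10.75 in CD44lo) and Prdm1 (10.99 in CD44hi, 11.02 in CD44lo) lay above it on every array. These plasma cell markers are named after their values were seen. Of 9 B cell markers 2 had an unadjusted p under 0.05 by limma, and 3 with the replicate block. Ebf1 passed as higher, at 11.89 in CD44hi and 5.30 in CD44lo, and the other 8 together had a summed linear intensity of 299 to 398 in CD44hi and 285 to 301 in CD44lo. Ms4a1 (CD20) was at 4.99 in CD44hi and 3.68 in CD44lo, with all 4 CD44hi arrays above the CD44lo arrays, and did not pass (difference 1.31, limma adjusted p = 0.110, or 0.0758 with the replicate block). Cd79a and Cd79b, which are named with Ms4a1 and Cr2 after their values were seen, lay near the Bacillus probe sets in both groups (Cd79a 5.32 in CD44hi and 5.49 in CD44lo, Cd79b 4.96 in CD44hi and 4.75 in CD44lo). Cr2, the brightest of these 8, was at 6.67 in CD44hi and 6.32 in CD44lo, above the highest Bacillus probe set on every array. It did not pass (difference 0.35, limma adjusted p = 0.616). The part of such cells in the SLAM differences was not tested.

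A sign of RNA quality also moved with the groups. Gapdh control probe sets of the 3' end read higher than those of the 5' end by 0.82 ± 0.05 log2 units on CD44hi arrays and 0.70 ± 0.04 on CD44lo arrays (SD, n = 4 each). For Actb control probe sets this was 0.63 ± 0.15 on CD44hi arrays and 0.50 ± 0.11 on CD44lo arrays. The Actb groups overlapped (0.47 to 0.79 in CD44hi, 0.38 to 0.61 in CD44lo). The part of RNA quality in the SLAM differences was not tested.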

How the data were processed

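RNA of 4 CD44hi and 4 CD44lo samples was hybridised to 1-colour arrays, with group and number read from the sample titles. Per the labels' protocols, the authors preprocessed the arrays by RMA (Robust Multichip Average), which gave the deposited intensity of each probe set; its version is not given in the sources used here. As these intensities ran from 7.61 to 36128 (median of an array 320.27 to 339.13), they were taken as linear, and log2 was taken with no pseudocount. Arrays are few, which limits the precision.

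Of 22690 probe sets 64 are controls, 20380 have 1 gene symbol, 691 several and 1555 none in the platform annotation. Genes of lists were represented by their probe set with the highest mean. The members, gene lists and tests were chosen with earlier results of these data known. Groups were compared over all 22626 probe sets with limma 3.58.1 in R 4.3.3, without covariates, with Benjamini-Hochberg adjustment and a threshold of 0.05. The fit was tested on simulated data. Named are all members, up to 6 called genes of a list or else the 3 of smallest p, and the 5 genes nearest in pattern to the 2 most different members.

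Both groups share replicate numbers. The deviations from the group means correlated between arrays of one number at 0.572, 0.392, 0.540 and 0.541 for numbers 1 to 4, each over 0.1. The main fit has no block. Because of these values, and not from the labels, a fit with the replicate number as a block was added as an alternative. Its values stand beside results they change. Odd numbers correlated with each other, and even with even, about as well (0.521, 0.454, 0.371 and 0.436). The values therefore do not single out same-numbered arrays as pairs.

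Alternatives were quantile normalization, centring on array medians, a filter on dim probe sets, 1 probe set a gene, an intensity trend, the replicate block and leaving out each array.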

Additional observations from a re-analysis of the deposited data

Results flagged for a closer look

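Among 24 sets of 4 values (12 probe sets in each group), 2 had 1 array set apart from the other 3, where chance alone gives about 1 in 20. For Slamf6 (1425086_a_at) CD44hi array 4 was at 9.04 and the others were at 8.52 to 8.57. Without it the difference from CD44lo was -3.41. For Sh2d1a CD44hi array 1 was at 5.27 and the others were at 5.18 to 5.20, all below the highest Bacillus probe set.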

How the results depend on the processing

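The 4 probe sets of Slamf6, Cd84 and Slamf7 stayed lower, and past the threshold, in the alternatives that kept them; the filter on dim probe sets and 1 probe set a gene dropped 1420659_at of Slamf6, which left 3. These counts support nothing about the members, which were chosen on this comparison. Leaving out 1 array gave differences of -2.92 to -2.70 and -3.41 to -3.24 for the 2 Slamf6 probe sets, -1.80 to -1.62 for Cd84 and -1.41 to -1.12 for Slamf7. Of 158 member differences under alternatives 158 moved by less than 1 SD, and 3 of genes that did not pass changed sign. The first count is no sign of stability, because most of it was fixed in advance. The intensity trend, the block, the filter and 1 probe set a gene leave a difference as it was. Leaving out 1 array of 4 cannot move a group mean by 1 SD of that group. Slamf1 1425570_at was a further lower probe set with quantile normalization and without CD44hi replicate 3, which made 5. With the replicate block 4 member probe sets, of 3 genes, were lower and 0 higher. Leaving out 1 array gave 1 to 2 lower signalling partners.

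The count of NKT cell genes called higher went to 1 with quantile normalization, the filter on dim probe sets, 1 probe set a gene and the intensity trend (Tbx21 in each), and to 1 with the replicate block (Ifng). The filter left 1 lower NKT gene because Gata3 lay below it. The replicate block also called 1 T follicular helper gene higher. Of all probe sets 371 were higher and 334 lower, or 571 and 594 with the block. Slamf1, Slamf8, Slamf9 and Sh2d1a, and 1420659_at of Slamf6 in CD44hi, rest on signal near background.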
